A study of Mus musculus with 18 samples.

Results

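The replication-dependent histone genes are the protein-coding genes whose mouse symbols begin with Hist1h, Hist2h, Hist3h or Hist4h, and all 67 of them were found by identifier among the 54281 genes counted in the descending aorta. They comprised 6 genes for the linker histone H1, 18 for H2A, 18 for H2B, 12 for H3 and 13 for H4. The Hist1 cluster on chromosome 13 held 54 of them, the Hist2 cluster on chromosome 3 held 10, the Hist3 cluster on chromosome 11 held 2 and Hist4h4 lay alone on chromosome 6. RNA had been sequenced from whole descending aortas (intima, media and adventitia) of 18 male C57BL/6 mice. Groups of 6 mice each were compared, namely 2-mo mice labelled LMNAG609G (HGPS), 2-mo WT mice and 24-mo WT mice. The mutant line is a knock-in at the Lmna locus itself, so the truncated lamin A called progerin is made wherever the gene is used. The study introduces the model as carrying the allele on both copies and names heterozygous stock in its methods, and the labels give no zygosity for the mice sequenced. Ages were 64 to 75 d in HGPS, 62 d in 2-mo WT apart from replicate 6 at 95 d, and 609 to 762 d in 24-mo WT. The libraries were made from ribosome-depleted total RNA, so RNA without a poly(A) tail was kept, and held between 12413229 and 30844775 counts per mouse.

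Histones wrap DNA into nucleosomes. H2A pairs with H2B and H3 pairs with H4 to form the core, and H1 binds the linker DNA where it enters and leaves. The replication-dependent genes supply new histones while DNA is copied in S phase, and their mRNAs are the main class of animal mRNA that ends in a conserved stem-loop in place of a poly(A) tail. The stem-loop is bound by SLBP, which serves 3′ end cutting, export, translation and the rapid decay of the mRNA once S phase ends. Some of the same genes can also be read through to a downstream poly(A) signal in cells that have left the cell cycle. The artery wall is largely made of cells that seldom divide.

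The stem-loops are shown because they mark the class and separate H4 from the other families. In the GENCODE M21 transcripts of these genes (GRCm38), 3′ UTRs were searched for the histone form of the stem-loop. Its stem of 6 paired bases begins with GG and ends in T, and its loop of 4 bases is TNTN (N, any base). This motif was found in 46 of the 54 members with an annotated 3′ UTR. Among 21834 other protein-coding genes, those without an annotated 3′ UTR included, 14 held it, or 0.0641%. In the members the motif began 22 to 59 bases after the stop codon. The 16 bases are printed 5′ to 3′ with the stem in capitals, followed by the number of members that carry them.
26 members of H1, H2A, H2B and H3: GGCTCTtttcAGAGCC
6 members of H1, H2B and H3: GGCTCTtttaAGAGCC
7 members, all H4: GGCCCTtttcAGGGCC
2 members, both H4: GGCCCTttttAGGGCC
2 members, both H4: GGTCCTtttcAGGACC
The 12 H4 stem-loops all differed in the stem from the 34 of the other families. For Hist1h1c, a linker histone gene whose level leads the class, the stem-loop with 5 bases on either side reads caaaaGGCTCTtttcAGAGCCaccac (stem-loop at chr13:23739512-23739527, plus strand, GRCm38, 3′ UTR). For Hist1h4d, the H4 gene of highest mean CPM over the 18 mice, it reads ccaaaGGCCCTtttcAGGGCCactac (stem-loop at chr13:23581950-23581965, plus strand, 3′ UTR). The gene models differed in where they end: 23 ended within 100 bases of the stem-loop, 23 ran more than 100 bases past it, 8 had a 3′ UTR with no such motif (Hist2h2be, Hist2h3b, Hist1h2bq, Hist1h2br, Hist1h2ah, Hist1h2af, Hist1h2bc and Hist1h1a) and 13 had no annotated 3′ UTR. Of those 8, Hist1h2ah and Hist1h2af have annotated 3′ UTRs of 2 and 1 bases, too short to hold the motif, and Hist2h3b and Hist1h1a ones of 37 and 48 bases, and no bases past the end of a model were searched.

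H2A and H2B genes often lie head to head, and 12 such pairs had starts 176 to 306 bases apart. The octamer (ATTTGCAT, either strand), which is bound by Oct-1 in H2B promoters, was found between 250 bases before and 50 after the start in 7 of 17 H2A and 7 of 16 H2B promoters in RefSeq (GRCm38.p6). None of the H1, H3 or H4 promoters held it, and 1.97% of all RefSeq promoters did. The H2A and H2B counts are not independent, because promoters of a head-to-head pair can overlap. The same octamer was counted for both Hist1h2ah and Hist1h2bk, for both Hist1h2ae and Hist1h2bg, and for both Hist1h2ba and Hist1h2aa. CCAAT stood in 85.2% of the 61 member promoters found and in 41.1% of all promoters, and TATAAA in 57.4% and 15.7%, either strand counted. A match is a description and not a site. The windows below, 30 bases with the octamer in capitals, are from Hist1h2bb, which is taken up under aging, and from the pair Hist1h2bk and Hist1h2ah, which share 1 window.
Hist1h2bb (chr13:23746633-23746662, plus strand): ttgagtctcttATTTGCATaaagcctttga
Hist1h2bk (chr13:22035780-22035809, plus strand): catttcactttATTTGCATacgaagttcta

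The first question was how much of the class the aorta holds. Of the 67 members, 49 had at least 10 counts in at least 6 mice and were tested. Of the 49, 41 had reached 10 counts in at least 1 mouse of every group and 8 in mice of only 2 groups. Among these 8, Hist1h4k, Hist1h4j, Hist1h3i, Hist1h2bm and Hist1h3g had fewer than 10 counts in every 24-mo mouse. They passed the filter through the 2-mo groups, where they are higher, so their comparisons with 24-mo WT are uncertain. The same caution holds for the rest of the 8 in comparisons with the group where they stayed under 10 counts. Of the other 18, Hist1h2ai, Hist1h2ah, Hist1h2aa and Hist2h3c1 had 0 counts in every mouse, and the remaining ones had between 2 and 158 counts over all 18 mice together. Among these were 11 of the 18 H2A genes. Coding regions of these genes are nearly identical, so reads can be split among them arbitrarily: only 26 members had at least 50% of their 31-base words to themselves, of which 21 were tested, and 5 members had none. The unique ones included all 6 H1 genes, 8 H4, 7 H2B, 4 H2A and 1 H3 gene.

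Levels were expressed as CPM, the share of a library's counts after TMM scaling of library sizes. Per kilobase of exon and averaged over 18 mice, they were led by the linker histone gene Hist1h1c at 78.6 and the H2B gene Hist1h2bc at 43.2. Below them stood the H4 genes Hist1h4h at 28.7, Hist1h4d at 23.5 and Hist1h4c at 17.96, the H2B gene Hist2h2bb at 22.1, the H1 gene Hist1h1e at 22.1 and the H2A gene Hist2h2aa1 at 20.95. Hist2h2bb and Hist2h2aa1 had no 31-base word of their own, so these levels may be shared with their copies. The highest H3 level was 3.39, in Hist1h3e. Hist1h4h was added to this order after its value was seen.

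In HGPS aortas most of the tested linker histone genes were higher, while few core histone genes were called. In 2-mo HGPS against 2-mo WT aortas, 6 of 49 members rose past 1.5-fold with an adjusted p under 0.001 (edgeR's quasi-likelihood test) and none fell. Over all 15210 genes, 9.50% were called, 5.27% upward and 4.23% downward. The 6 were 4 of the 5 tested H1 genes (Hist1h1a, Hist1h1b, Hist1h1c and Hist1h1d), the H2A gene Hist1h2ac and the H2B gene Hist1h2bc, and each had at least 50% of its words to itself. At an adjusted p under 0.05 and any fold, 17 members were higher and 3 lower, 40.8% of the 49 against a background of 43.2%. The share that passed was near that of all genes. The median log2 fold change was 0.38 over the 49 members and 0.00 over all genes. It ran from 0.13 without HGPS replicate 6 to 0.58 without HGPS replicate 4, and was 0.069 over the 24 members with 10 counts in all 18 mice. Groups did not overlap for 7 members, all higher in HGPS, or 14.3%, against 21.9% of all genes.

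Hist1h1c encodes one of the somatic H1 subtypes and gave the largest share of histone counts. Its level was 66.4, 98.9 and 114 CPM (lowest, median and highest mouse) in 2-mo WT and 149, 197 and 236 CPM in HGPS. Every HGPS mouse lay above every WT mouse. The log2 fold change was 1.02 ± 0.16 (SE, adjusted p = 6.31e-05, edgeR), from 93.4 ± 19.8 to 189.8 ± 34.2 CPM (SD, n = 6). Hist1h1c made up on average 23.6% of the summed CPM of all 67 members in 2-mo WT and 37.8% in HGPS.

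Hist1h1a and Hist1h1b encode H1 subtypes best known from dividing cells. Hist1h1b lay at 0.698, 1.45 and 2.46 CPM in 2-mo WT and at 2.94, 4.12 and 6.49 CPM in HGPS, with no overlap between the groups. Its log2 fold change was 1.51 ± 0.32 (SE, adjusted p = 0.000877, edgeR), and its counts were between 10 and 46 per WT mouse. Hist1h1a lay at 1.48, 2.24 and 3.04 CPM in WT and at 3.56, 4.84 and 6.94 CPM in HGPS, again without overlap, a log2 fold change of 1.14 ± 0.23 (SE, adjusted p = 0.000494, edgeR). Hist1h1d lay at 4.26, 4.83 and 7.84 CPM in WT and at 7.40, 11.9 and 13.3 CPM in HGPS. The lowest HGPS mouse was below the highest WT mouse, and the log2 fold change was 1.00 ± 0.19 (SE, adjusted p = 0.000382, edgeR).

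Hist1h1e, the H1 gene second in level, was not called. It lay at 37.5, 46.6 and 57.4 CPM in 2-mo WT and at 30.6, 33.8 and 44.4 CPM in HGPS, a log2 fold change of -0.41 ± 0.17 (SE, adjusted p = 0.0656, edgeR) that missed both thresholds. Its share of the summed member CPM averaged 12.2% in 2-mo WT and 7.08% in HGPS. The sixth H1 gene, Hist1h1t, a testis subtype, had 33 counts in all 18 mice and was not tested.

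**Figure D1:**
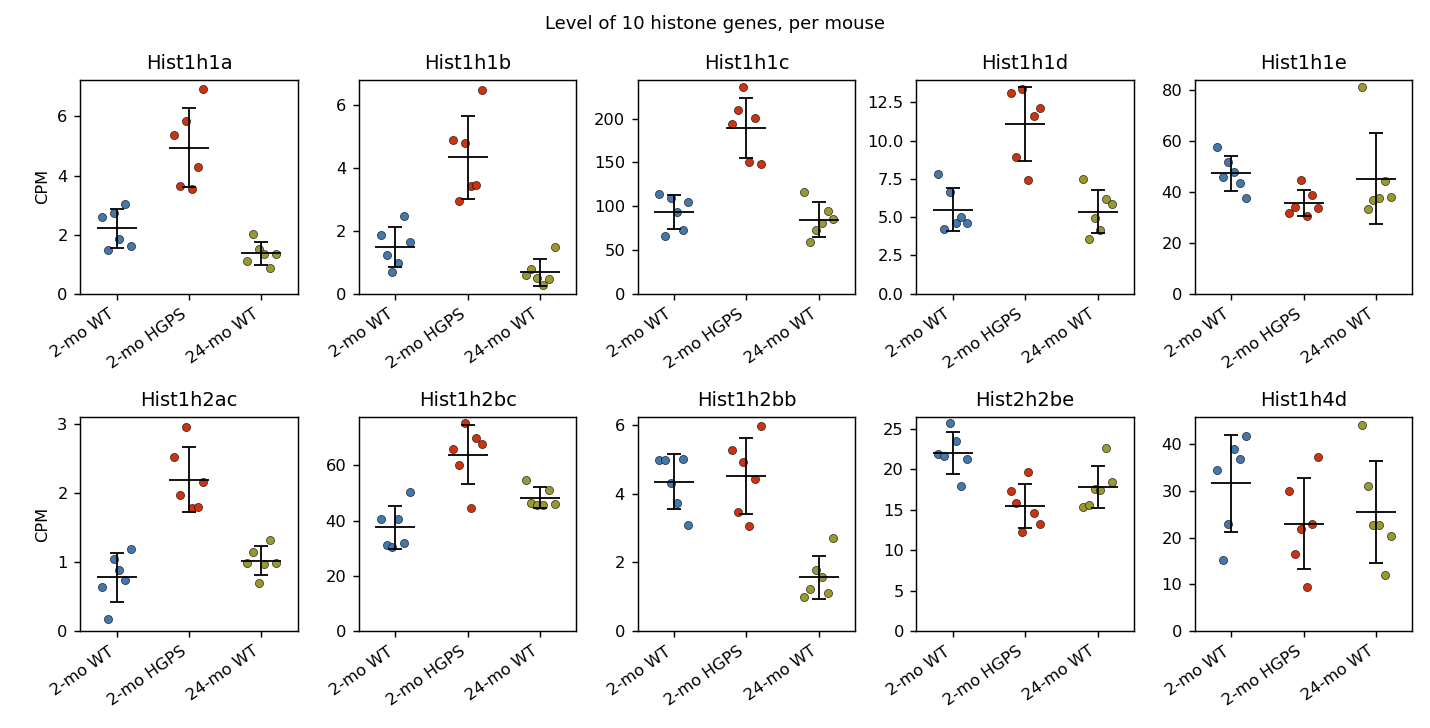
Level of 10 histone genes in CPM (y axis, from 0) for each of 6 mice per group (x axis, 2-mo WT, 2-mo HGPS and 24-mo WT), with the mean and the SD over mice as bars. All HGPS mice lie above all 2-mo WT mice for Hist1h1a, Hist1h1b, Hist1h1c and Hist1h2ac, and all 24-mo WT mice lie below all 2-mo WT mice for Hist1h2bb.

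The H2A and H2B calls came from a head-to-head pair, Hist1h2ac and Hist1h2bc, whose starts are 251 bases apart. Hist1h2bc is the H2B gene of highest level. It lay at 30.4, 36.2 and 50.4 CPM in 2-mo WT and at 44.6, 66.7 and 75.2 CPM in HGPS, where 1 mouse fell within the WT range. The log2 fold change was 0.77 ± 0.13 (SE, adjusted p = 8.87e-05, edgeR). Hist1h2ac lay at 0.178, 0.820 and 1.19 CPM in WT and at 1.78, 2.07 and 2.97 CPM in HGPS without overlap, a log2 fold change of 1.49 ± 0.29 (SE, adjusted p = 0.000416, edgeR) at 3 to 23 counts per WT mouse. In 24-mo against 2-mo WT their log2 fold changes were 0.39 and 0.36, past neither threshold. Of the 6 called members, Hist1h1c and Hist1h2bc stayed called under every alternative and with any 1 mouse left out, and the other 4 lost the adjusted p of 0.001 in some. The gene model of Hist1h2ac runs 2010 bases past its stem-loop, and the 3′ UTR annotated for Hist1h2bc holds none.

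Among all 14 tested H2B genes, Hist1h2bc included, 5 were higher and 1 was lower at an adjusted p under 0.05, or 42.86% against 43.2% of all genes, and the family's median log2 fold change was 0.64. The lower one, Hist2h2be, lay at 17.9, 21.7 and 25.8 CPM in 2-mo WT and at 12.3, 15.2 and 19.7 CPM in HGPS. Its log2 fold change of -0.50 ± 0.12 (SE, adjusted p = 0.00197, edgeR) fell short of the fold threshold. Of 7 tested H2A genes, Hist2h2ac was lower at that threshold (-0.77 ± 0.29, SE, adjusted p = 0.0387). The H2A genes of highest CPM, Hist2h2aa1 and Hist3h2a, had log2 fold changes of -0.16 and 0.06, neither past a threshold. Hist3h2a varied least, between 8.6 and 12.0 CPM over all 18 mice.

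No H3 gene was called at 1.5-fold and 0.001, but 6 of 10 were higher at an adjusted p under 0.05, where 43.2% of all genes passed in either direction, and the family's median log2 fold change was 1.23. These genes were low, and only 1 of the 12 has at least 50% of its words to itself, so single H3 genes are uncertain. Hist2h3c2 came closest to the stricter threshold: it lay at 0.651, 1.22 and 1.47 CPM in 2-mo WT and at 1.75, 2.28 and 3.72 CPM in HGPS without overlap (log2 fold change 1.14 ± 0.26, SE, adjusted p = 0.00156, edgeR). The H3 genes of highest CPM, Hist1h3f and Hist1h3e, had log2 fold changes of -0.13 and 0.12 with groups that overlapped.

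H4 genes showed no common direction. All 13 were tested, 1 was higher and 1 lower at an adjusted p under 0.05, or 15.4% against 43.2% of all genes, and the median log2 fold change was -0.01. Hist1h4d lay at 15.2, 35.6 and 41.7 CPM in 2-mo WT and at 9.52, 22.4 and 37.2 CPM in HGPS, and Hist1h4c at 9.29, 19.7 and 24.8 CPM and at 6.68, 14.7 and 24.1 CPM. The ranges overlapped for both, with log2 fold changes of -0.47 ± 0.31 and -0.33 ± 0.31 (SE) that missed both thresholds. The difference between families was not tested.

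**Figure D2:**
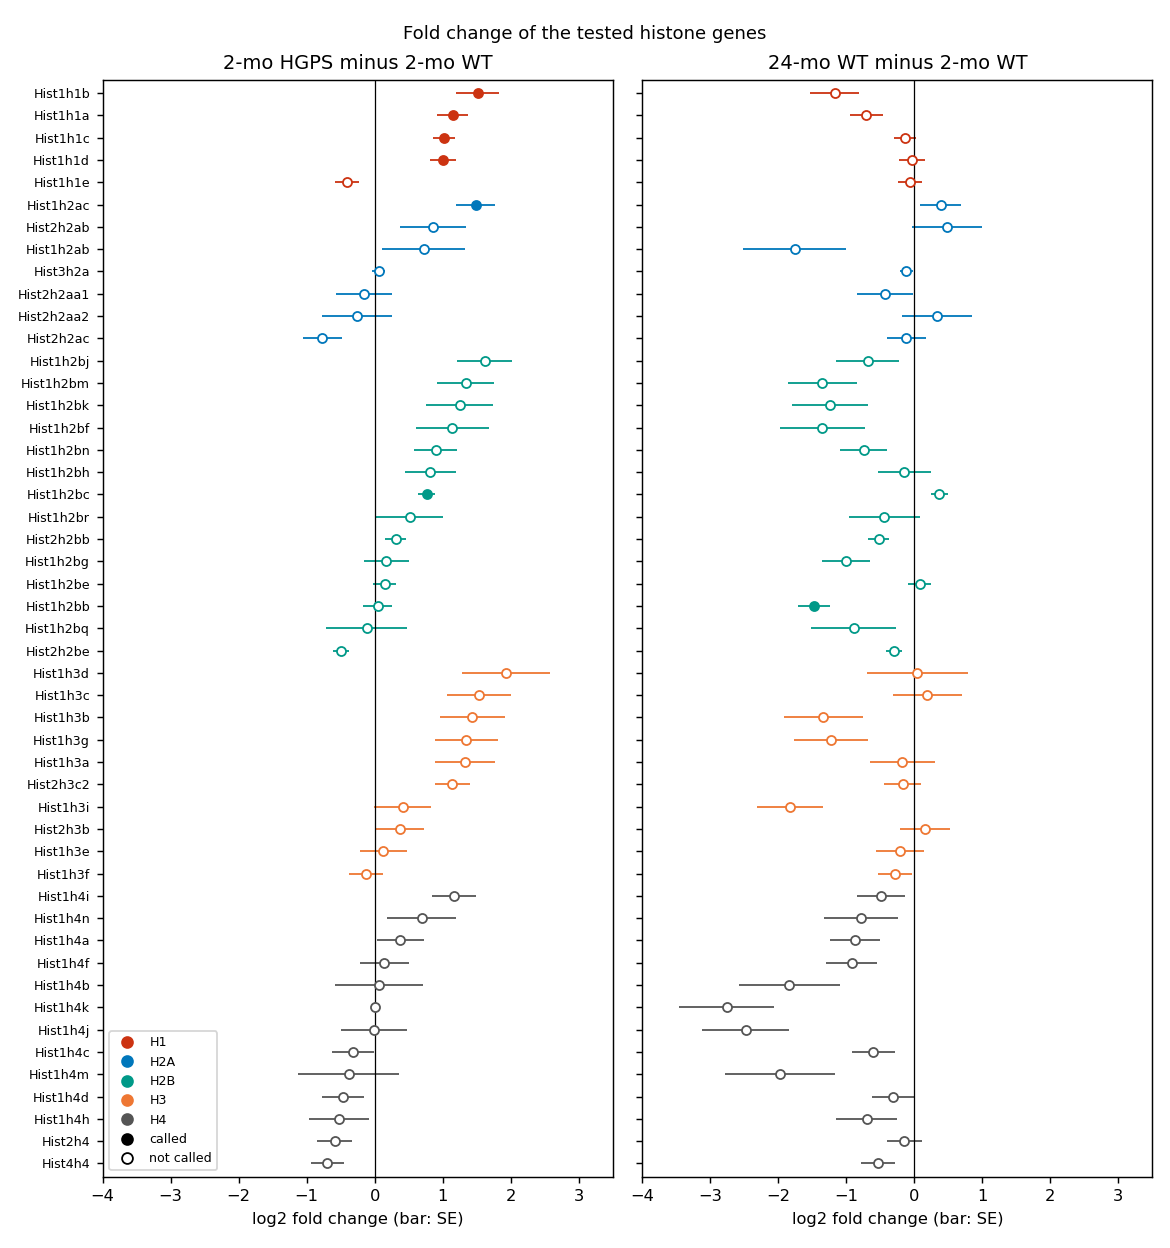
Log2 fold change of each of the 49 tested members (y axis, ordered by family) in 2-mo HGPS minus 2-mo WT (left) and 24-mo WT minus 2-mo WT (right), with bars for the SE and filled points for genes called at 1.5-fold and an adjusted p under 0.001. On the left 6 points are filled, all above 0 and 4 of them H1, and on the right only Hist1h2bb is filled, at -1.48. Hist1h4k has no bar on the left because its fold change was 0.00.

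Summed over each family, H1 came to 149.8 ± 24.9 CPM in 2-mo WT and 245.8 ± 39.4 CPM in HGPS (SD, n = 6), and the groups did not overlap. Without Hist1h1c and Hist1h1e, the other 4 H1 genes summed to between 7.04 and 12.5 CPM in WT and between 14.5 and 25.6 CPM in HGPS. Hist1h1e had a lower mean in HGPS, by about as much as these 4 together were higher. Nearly all of the difference in the H1 sum was therefore that of Hist1h1c. H2B came to 101.7 ± 10.7 and 133.7 ± 22.2 CPM and H3 to 13.0 ± 3.46 and 20.1 ± 10.3 CPM. H2A came to 37.8 ± 10.8 and 37.4 ± 15.1 CPM and H4 to 94.5 ± 33.5 and 74.4 ± 34.9 CPM. All 67 members summed to between 275.5 and 458.4 CPM in 2-mo WT and between 352.1 and 597.3 CPM in HGPS, a ratio of the means of 1.29. With Hist1h1c left out the ratio was 1.06. The core histone genes alone came to 247.0 ± 57.1 and 265.5 ± 80.4 CPM. In whole tissue, fewer cells of a type and less RNA per cell cannot be told apart.

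**Figure D3:**
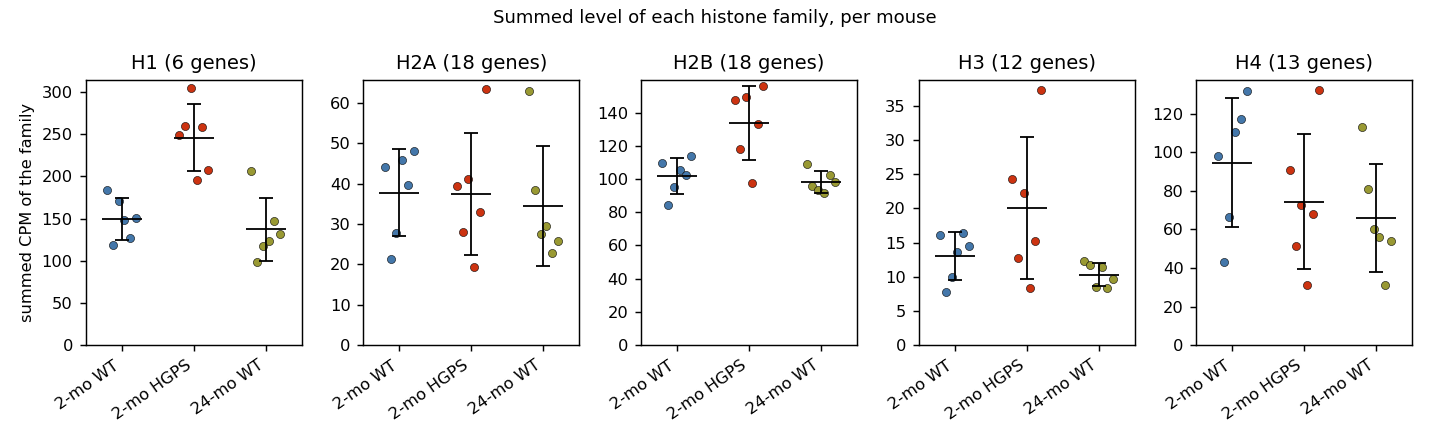
Summed CPM (y axis, from 0) of all members of each of 5 histone families for each of 6 mice per group (x axis), with the mean and SD over mice as bars. The H1 sums of HGPS mice, 195.6 to 304.2 CPM, lie above all 2-mo WT mice, and the H4 sums of the 3 groups overlap.

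With normal aging few members passed the test. In 24-mo against 2-mo WT aortas 1 of 49 members was called, the H2B gene Hist1h2bb, which fell. Over all genes 2.00% were called, 1.28% upward and 0.717% downward. At an adjusted p under 0.05, 6 members were lower and none higher, or 12.2% against a background of 11.7% in either direction and 5.38% downward. Log2 fold changes were below 0 for 41 of 49 members with a median of -0.53, against 0.01 over all genes, and for all 13 H4 genes with a median of -0.78. Over the members with 10 counts in all 18 mice the median was -0.29. The groups did not overlap for 2 members, Hist1h2bb and Hist1h3i, or 4.08% against 6.28% of all genes, of which 3.20% were higher and 3.08% lower.

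Hist1h2bb lay at 3.10, 4.65 and 5.02 CPM in 2-mo WT, at 3.06, 4.67 and 5.98 CPM in HGPS and at 0.995, 1.40 and 2.71 CPM in 24-mo WT. The old mice stood apart from both young groups, while the ranges of the 2-mo groups overlapped. The log2 fold change with age was -1.48 ± 0.23 (SE, adjusted p = 0.000226, edgeR), and the call was lost with the replicate block (adjusted p = 0.00116) and with only these 2 groups in the fit (adjusted p = 0.00102). The next in p were the H4 genes Hist1h4k (-2.76 ± 0.70, SE, adjusted p = 0.013, edgeR) and Hist1h4j (-2.48 ± 0.64, adjusted p = 0.0151), the H3 gene Hist1h3i (-1.83 ± 0.49, adjusted p = 0.0178), the H2B gene Hist2h2bb (-0.53 ± 0.16, adjusted p = 0.032) and Hist1h1b (-1.17 ± 0.36, adjusted p = 0.0395). Hist1h4k and Hist1h4j had no more than 4 counts in any 24-mo mouse, so these fold changes are imprecise. Hist1h4k, Hist1h3i and Hist2h2bb share most or all of their words with copies. The H1 gene Hist1h1a lay at 0.865, 1.36 and 2.01 CPM in 24-mo WT and just missed the threshold (-0.71 ± 0.24, SE, adjusted p = 0.0637).

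Both comparisons share the same 2-mo WT mice, and HGPS against 24-mo WT is the difference between them. There 15 of 49 members rose past 1.5-fold at an adjusted p under 0.001 and none fell, against 12.1% of all genes, 6.02% upward and 6.11% downward. At an adjusted p under 0.05, 30 members were higher and none lower, 61.2% against 47.3% of all genes. Of all genes, 23.8% were higher and 23.6% lower. The 15 were the same 4 H1 genes called against 2-mo WT, 6 of 14 H2B, 4 of 10 H3, 1 of 13 H4 and none of 7 H2A genes. Among them, Hist1h2bm, Hist1h3g and Hist1h3i had fewer than 10 counts in every 24-mo mouse. Hist1h1b differed by 2.68 ± 0.35 (SE, adjusted p = 5.34e-06, edgeR), Hist1h1a by 1.86 ± 0.24 (adjusted p = 4.17e-06), Hist1h1c by 1.16 ± 0.16 (adjusted p = 1.13e-05) and Hist1h2bb by 1.52 ± 0.23 (adjusted p = 2.71e-05), all on the log2 scale. For Hist1h2bc the HGPS mice and the 24-mo mice differed less, by 0.40 ± 0.12 (adjusted p = 0.0118), short of the fold threshold. The median log2 difference over the 49 members was 1.16, against -0.01 over all genes. Over the 24 members with 10 counts in all 18 mice the median was 0.29, 6 members were called and 10 passed an adjusted p of 0.05. Against the 12.1% and 47.3% of all genes in the main fit, 6 of 24 is larger and 10 of 24 smaller. The shares of all genes at that count minimum are not given. The 15 calls were 9 without HGPS replicate 3 or 6 or 24-mo WT replicate 3 or 4.

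The spread of the core histone genes among mice of a group was large and shared. Of the 49 tested members, 36 were highest within HGPS in replicate 6 and 39 lowest in replicate 4, and 31 were lowest within 2-mo WT in replicate 2. H4 sums ran from 31.004 to 132.5 CPM among HGPS mice, from 43.2 to 131.8 CPM in 2-mo WT and from 30.9 to 112.8 CPM in 24-mo WT. In 24-mo WT, replicate 1 held the highest value of 23 members. Other RNAs that lack a poly(A) tail were therefore set beside them. Of a list of 11 such RNAs, 5 were tested, among them Rn7sk, the 7SK RNA that restrains transcription elongation, Rmrp and Rpph1, RNA parts of RNases, and the long nuclear RNAs Malat1 and Neat1, of which Neat1 also has a short polyadenylated form that a gene count includes. Neat1 itself rose in HGPS against 2-mo WT (log2 fold change 1.09 ± 0.23, SE, adjusted p = 0.000883, edgeR) and Malat1 was higher at an adjusted p under 0.05 (0.40 ± 0.16, adjusted p = 0.0484), so their mean is not free of that contrast. Their mean log2 CPM over 6 identifiers (Rmrp has 2) ran from 8.51 in HGPS replicate 4 to 9.85 in replicate 6, from 8.63 in 2-mo WT replicate 2 to 9.596 in replicate 5, and from 8.47 in 24-mo WT replicate 5 to 10.01 in replicate 1. In each group the mouse lowest in these RNAs was also the lowest in summed H4, and in HGPS and 24-mo WT the highest was the same mouse as well.

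**Figure D4:**
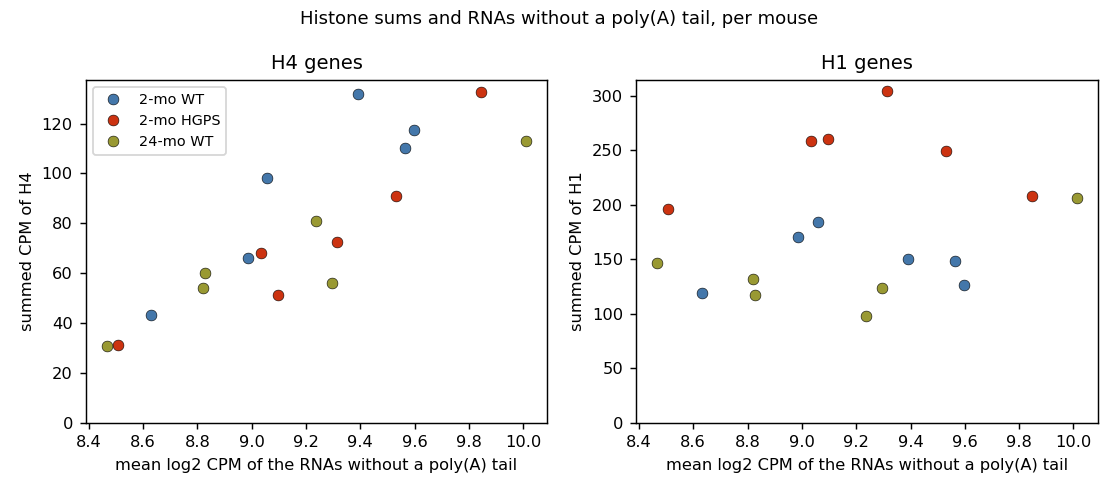
Summed CPM of the H4 genes (left) and H1 genes (right; y axes from 0) against the mean log2 CPM of 6 RNA identifiers without a poly(A) tail (x axis), 1 point per mouse, coloured by group. H4 sums range from 30.9 to 132.5 CPM and are lowest in the mice on the left. H1 sums of HGPS mice lie between 195.6 and 304.2 CPM. The mouse furthest left of its group has the lowest H1 sum in HGPS (195.6 CPM) and in 2-mo WT (119.1 CPM). In 24-mo WT the mouse furthest right has the highest (206.3 CPM). HGPS replicate 6, furthest right of its group, has 207.8 CPM, and 24-mo WT replicate 5, furthest left, has 146.7 CPM.

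In an edgeR fit with the 3 groups and these RNAs as a covariate, whose slope was examined only after the values were seen, 23 of 49 members had a rising slope at an adjusted p under 0.05 and 1 a falling one, or 48.98% against 8.63% of all genes, where 4.84% were rising. The slope is the log2 change per 1 log2 unit of the RNAs at a given group. By family, 9 of 13 H4, 6 of 10 H3, 4 of 7 H2A, 4 of 14 H2B and 0 of 5 H1 genes had a rising slope, with median slopes of 1.23, 1.01, 1.16, 0.69 and 0.29, against -0.01 over all genes. Hist1h4d had a slope of 1.23 (adjusted p = 5.77e-05) and Hist1h1c one of 0.13 (adjusted p = 0.665). The 1 falling slope was that of Hist2h2be, at -0.30 (adjusted p = 0.0488). By the end of the gene model, 12 of 18 that end within 100 bases of the stem-loop had a rising slope, 10 of 19 that run further, 1 of 6 with a 3′ UTR and no stem-loop and 0 of 6 with no 3′ UTR. The median slopes of these classes, in that order, were 1.49, 0.81, 0.55 and 0.74. The difference between the classes was not tested.

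**Figure D5:**
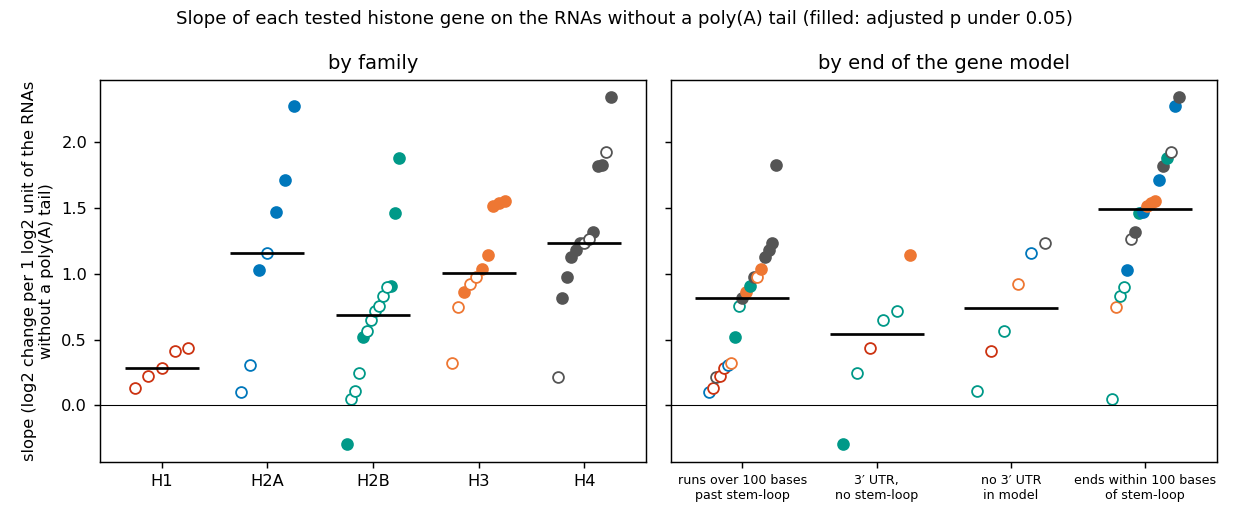
Slope of each of the 49 tested members on the RNAs without a poly(A) tail (y axis, log2 per log2 unit), by family (left) and by where the gene model ends (right), coloured by family in both, with filled points at an adjusted p under 0.05 and bars for medians. H1 genes have no filled point and a median of 0.29, and H4 genes have 9 filled points of 13 and a median of 1.23.

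With these RNAs in the fit, the same 6 members were called upward in HGPS against 2-mo WT, and 2 were called downward, Hist2h2ac (-0.83 ± 0.16, SE, adjusted p = 0.000388, edgeR) and the H4 gene Hist2h4 (-0.61 ± 0.12, adjusted p = 0.000713). Both are named here because of those values. Hist1h4d stood at -0.53 ± 0.14 (adjusted p = 0.00373), short of both limits for a call. At an adjusted p under 0.05, 4 of 13 H4 genes were lower and 1 higher, where 6998 of all 15210 genes passed in that fit. With age, Hist1h2bb stayed the single call, and 12 members were lower and 1 higher at 0.05, against 14.6% of all genes in that fit. Why these RNAs varied among mice was not tested.

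Genes of the histone supply chain were followed as lists. Slbp, which binds the stem-loop, had a level of 22.2 ± 2.56 CPM in 2-mo WT, 21.4 ± 1.86 in HGPS and 20.7 ± 2.42 in 24-mo WT (SD, n = 6), and passed neither test. Npat, the coactivator of histone transcription, stood at 49.4 ± 2.96 and 41.8 ± 6.29 CPM in 2-mo WT and HGPS, a log2 fold change of -0.24 ± 0.08 (SE, adjusted p = 0.026, edgeR). Of 20 tested genes for histone mRNA synthesis and 3′ end formation, 2 rose in HGPS past 1.5-fold and an adjusted p of 0.001 and none fell, where 5.27% and 4.23% of all genes did. At an adjusted p under 0.05, 6 were higher and 5 lower. Those that rose were the cyclin E genes, whose kinase acts on Npat: Ccne2 went from 2.20 ± 0.45 to 7.55 ± 1.25 CPM and Ccne1 from 0.337 ± 0.166 to 1.12 ± 0.35 CPM. The list's median log2 fold change was -0.04.

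Of 20 histone chaperone and deposition genes, 2 rose and 1 fell, where 5.27% and 4.23% of all genes did, with a median of 0.01. Those that rose serve deposition behind the replication fork, Chaf1a (log2 fold change 1.15 ± 0.18, SE) and Asf1b (1.57 ± 0.33). Cabin1, a partner of the replication-independent chaperone HIRA, fell from 71.4 ± 5.53 to 45.3 ± 3.74 CPM. Of 10 tested histone variant genes expressed outside S phase, 3 rose, namely H2afz (0.67 ± 0.09), H2afj (1.16 ± 0.16) and the centromeric H3 gene Cenpa (1.04 ± 0.19), and the median was 0.08. H1f0, the linker histone of resting cells, did not pass in HGPS (-0.08, adjusted p = 0.708, edgeR) and was lower at 24 mo (-0.63, adjusted p = 0.0117).

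Cell cycle genes were followed by the same thresholds. Of 37 DNA replication and S-phase genes 8 rose in HGPS and none fell, and 26 were higher and 1 lower at an adjusted p under 0.05. Their median log2 fold change was 0.50, among them the helicase subunits Mcm5 (1.11 ± 0.12, SE) and Mcm7 (0.64 ± 0.10) and the dUTPase gene Dut (0.80 ± 0.12). Of 25 genes of G2 and mitosis 15 rose, with a median of 1.44, among them Top2a (1.64 ± 0.19), Prc1 (1.76 ± 0.21) and Cenpf (1.56 ± 0.20). Mki67, the proliferation marker, went from 4.89 ± 1.05 to 15.5 ± 3.55 CPM (SD, n = 6). Of 13 tested cell cycle inhibitor genes 4 rose, led by Cdkn1a, the p21 gene, from 14.1 ± 1.64 to 112.3 ± 17.6 CPM, and by Ccng1 and Gadd45a. At an adjusted p under 0.05, 6 inhibitor genes were higher and 2 lower. None of these lists had a call at 24 mo. Pcna, the sliding clamp of replication, had a log2 fold change of 0.43 ± 0.08 in HGPS, short of the fold threshold.

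Markers of cell types were measured in the same libraries. Smooth muscle markers were present, with Acta2 at 9269 CPM or more in every mouse. In HGPS 4 of 8 smooth muscle markers fell, and their sum ran from 20123 to 27989 CPM against 30480 to 39075 CPM in 2-mo WT. Of 8 macrophage markers 6 rose, with sums of 850.3 to 1371 CPM against 450.3 to 696.4 CPM, and Cd68 was 7.01 ± 1.20 in WT and 14.5 ± 2.53 CPM in HGPS. Brown fat markers summed to 481.1 to 1743 CPM in HGPS and 121.2 to 639.0 CPM in WT (1 of 8 called, 8 higher at an adjusted p under 0.05), and white fat markers to 676.2 to 2704 CPM and 258.2 to 935.6 CPM (0 of 8 called, 7 higher at 0.05), with median log2 fold changes of 1.86 and 1.51. Of 8 fibroblast markers 1 fell, sums running from 5949 to 10047 CPM in HGPS and from 8622 to 11216 CPM in WT. Endothelial markers overlapped (0 of 8 called, 965.3 to 1303 and 610.2 to 1470 CPM), as did those of red cells (0 of 7, 555.8 to 5316 and 552.9 to 6514 CPM). Lymphocyte markers stayed at or below 13.5 CPM in sum in any mouse, with Cd3e at 0 in some mice of each group, marrow precursor markers at or below 6.0 CPM and skeletal muscle markers at or below 8.4 CPM. The part of these cell types in the histone values was not tested. Lmna itself had a level of 415.3 ± 60.6 CPM in 2-mo WT and 576.7 ± 82.2 CPM in HGPS (log2 fold change 0.47 ± 0.12, SE, adjusted p = 0.0038, edgeR). A gene count cannot show the mutated base and so does not check the genotype.

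Only a few head-to-head pairs could be read on both sides. Both genes were tested in 2 of 12 pairs, Hist1h2ac with Hist1h2bc, both called upward in HGPS, and Hist2h2ac with Hist2h2be, both lower at an adjusted p under 0.05 (-0.77 and -0.50). In 7 other pairs 1 side alone was tested, which was the H2B gene each time, among them Hist1h2bk (1.25 in HGPS and -1.25 in 24-mo WT on the log2 scale) whose partner Hist1h2ah had 0 counts. In the Hist2 cluster 9 of 10 genes were tested. At an adjusted p under 0.05, 1 was higher and 2 lower in HGPS, or 33.3% against 43.2% of all genes. The median log2 fold change was -0.16. In the Hist1 cluster it was 0.71 over 38 genes, which include all tested H1 genes. Of the Hist2 genes tested, Hist2h2aa1, Hist2h2aa2, Hist2h3b and Hist2h2bb had no 31-base word of their own. The difference between clusters was not tested.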

How the data were processed

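RNA of whole descending aortas of 18 mice in 3 groups of 6 was sequenced paired-end as ribosome-depleted, stranded total RNA. Per the study's methods, reads were assigned with salmon to GENCODE M23 (GRCm38.p6) and brought to gene level with tximport, and the authors deposited these expected counts as whole numbers for 54281 genes, without normalization. Bowtie 0.12.2 is also named in the submitters' processing notes, with no role given. Salmon shares reads among near-identical histone copies by estimation, so members with few unique words are uncertain. Groups and replicate numbers came from the labels. A minimum of 10 counts in 6 or more mice left 15210 genes, which were scaled by TMM and tested with edgeR 4.0.16 (R 4.3.3, quasi-likelihood, 3 groups in 1 fit, 15 residual degrees of freedom) and adjusted by Benjamini-Hochberg over all of them. The call thresholds, 1.5-fold with adjusted p below 0.001, follow the study. The SE is the log2 fold change over the square root of F. Alternatives were DESeq2 1.42.0, other scalings and count minimums, a replicate block, 2-group fits, the RNAs without a poly(A) tail as a covariate and each mouse left out. Gene models and stem-loops came from GENCODE M21 (54107 identifiers found) and promoters from RefSeq (61 members matched, not Hist2h2be, Hist2h4, Hist1h2ap, Hist1h3f, Hist1h2bc or Hist1h3a). No pair of libraries in a group agreed within sampling noise. The procedure was tested on simulated data. Totals of 12413229 to 30844775 counts set the precision, and low members carry few counts. Named members were every called one in either comparison with 2-mo WT, topped up to 8 by smallest p, and the 2 of highest mean CPM per family; from the other lists, up to 3 called genes of smallest p. Members and lists were chosen with earlier results of these data known. Whether the mice came from separate litters is not stated, so p-values measure the spread among these mice.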

Additional observations from a re-analysis of the deposited data

Results flagged for a closer look

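In 78 sets of 6 mice checked for a single mouse far from the others, 4 were found, where chance gives about 1 in 20. The summed CPM of all members was 503.7 in 24-mo WT replicate 1, with the other mice between 306.6 and 324.6. Hist1h1e was 81.2 CPM in the same mouse and between 33.1 and 44.2 CPM in the others. Hist1h4j was 1.51 CPM in HGPS replicate 6 and at most 0.56 CPM in the others. Hist1h3i was 0.0 CPM in 24-mo WT replicate 4 and between 0.308 and 0.431 CPM in the others.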

How the results depend on the processing

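In HGPS against 2-mo WT the 6 called members numbered 2 to 7 with 1 mouse left out, being 2 without HGPS replicate 1 or 3 and 3 without HGPS replicate 6 or 2-mo WT replicate 2, 4 or 6. Against 24-mo WT the 15 numbered 9 to 18, being 9 without HGPS replicate 3 or 6 or 24-mo WT replicate 3 or 4. Testing only the 24 members with 10 counts in all 18 mice left 8 of 20 members at an adjusted p under 0.05 in HGPS against 2-mo WT, 2 of 6 in 24-mo against 2-mo WT, and 10 of 30 in HGPS against 24-mo WT, where 6 were called and the median log2 difference was 0.29. The shares of all genes at that count minimum are not given. The covariate of RNAs without a poly(A) tail raised the 24-mo count at 0.05 from 6 to 13. Mice of the same replicate number did not deviate together over all genes tested (median r -0.01 over 18 pairs, from -0.16 to 0.17). Pairs of other numbers ran from -0.23 to 0.29. A factor shared by the same numbers in few genes would not show in this measure. With the replicate block as a term, 4 members were called in HGPS and 0 with age, and 0 were called with age in the 2-group fit, where Hist1h2bb missed the adjusted p in edgeR at an unchanged direction. The other scalings left the calls at 6, 1 and 15. DESeq2 called 8, 1 and 19 members and put 9 at an adjusted p under 0.05 with age, where edgeR put 6. Directions turned for small fold changes only. In HGPS against 2-mo WT, Hist1h4k gave 0.039 with DESeq2, 0.0044 with RLE size factors, 0.0074 with upper-quartile factors, 0.017 without the count filter and 0.20 with the replicate block, and Hist1h4j gave 0.013 with DESeq2 and 0.0020 without the filter. With 1 mouse left out, log2 fold changes in that comparison ran from -0.24 to 0.34 for Hist1h4k, -0.57 to 0.21 for Hist1h4j, -0.051 to 0.14 for Hist1h2bb, -0.44 to 0.035 for Hist2h2aa1, -0.34 to 0.021 for Hist1h3f and -0.14 to 0.37 for Hist1h3e. With age they ran from -0.15 to 0.10 for Hist1h1d, -0.31 to 0.014 for Hist1h1e and -0.38 to 0.040 for Hist1h3e. The cause of these changes was not tested, beyond fewer members or mice in the fits. Of 790 values for named members, 722 kept direction and side of the threshold. Low counts and shared sequence limit single H3, H2A and H4 genes.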
